A study of Mus musculus with 10 samples.

Results

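C1qtnf3, Lepr, Itgbl1, Ajap1, Wfdc1, Ntrk3, Has2 and Pcsk5 are 8 mouse genes, of 19505 genes named on the array, whose signal was far higher with SAG than with cyclopamine and which are not listed components of the hedgehog pathway. Each is read by 1 probe set. They were chosen on the difference between SAG and cyclopamine, so that difference is given as a description and not tested. The rule of choice also asks where the vehicle cultures lie between the compounds for each gene, which is reported here. Earlier results with vehicle were known when the genes were chosen, so vehicle may have entered the choice. The samples are whole Wolffian ducts, the embryonic tubes that form the epididymis and vas deferens, dissected from 16.5-day (post-coitum) mouse embryos and cultured for 72 h at the air-liquid interface. As a model they are limited: the cells of a duct were not separated, the sample titles say pronephros while the protocols say Wolffian duct, and the sources used here give neither the mouse strain nor the number of ducts in a sample. There were 4 cultures with 0.5 µM SAG, an agonist of the hedgehog transducer Smoothened, 3 with 25 µM cyclopamine, a plant alkaloid that inhibits Smoothened, and 3 vehicle cultures, which the protocols describe as culture medium. The sources used here do not say whether vehicle held the compounds' solvent.

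Hedgehog ligands made by an epithelium act on the mesenchyme around it: the ligand binds Patched, Smoothened is released, and GLI factors switch on target genes such as Gli1, Ptch1 and Hhip. The 8 genes have varied roles that bear on how mesenchymal cells signal and shape their matrix. They encode a secreted ligand (C1qtnf3), cell surface receptors (Lepr, Ntrk3), matrix and adhesion proteins (Has2, Itgbl1, Ajap1), and a protease and a secreted protein of a protease inhibitor family (Pcsk5, Wfdc1). In whole-duct RNA, fewer cells of a type and less RNA per cell cannot be told apart, and the word stromal could not be checked for these genes. All values are log2 signals, in which 1 unit is a doubling. The 10 arrays had medians of 7.55 to 7.70. Pairs of arrays from the same group differed with an SD of 0.354 to 0.598 log2 units over probe sets, and the pairs of cyclopamine replicate 2 with the other cyclopamine arrays (0.598 and 0.595) were the most different. Precision is limited by how few arrays there are.

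The 8 genes fell along a range rather than into 1 pattern. At one end, C1qtnf3 and Lepr were high with SAG and near their cyclopamine level in vehicle. At the other, Wfdc1, Ajap1 and Ntrk3 were already high in vehicle on the log2 scale and low with cyclopamine. Has2 lay close to Ntrk3 on that scale, with vehicle at 0.64 of the way from cyclopamine to SAG against 0.67. On the linear signal scale vehicle was nearer to SAG for Wfdc1 alone. Pcsk5, Itgbl1 and Has2 passed the test against vehicle with both compounds. Passing does not rank the genes by size: the SAG difference of Has2 (1.27), which passed, was smaller than those of Ntrk3 (1.68) and Ajap1 (1.40), which did not. With SAG and vehicle fitted alone, Ntrk3 (limma adjusted p = 0.0202) and Ajap1 (0.0103) passed. With SAG, 5 of 8 genes rose against vehicle and 3 did not pass (limma adjusted p under 0.05 over all 22206 probe sets), where 0.45% of all probe sets were called higher. With cyclopamine, 6 of 8 fell and 2 did not pass, where 2.95% of all probe sets were called lower and 2.17% higher. These counts are a description, because a large difference between SAG and cyclopamine forces a large difference from vehicle on at least one side. Both comparisons use the same vehicle arrays. The median difference of the 8 genes was 2.10 for SAG minus vehicle, against 0.01 over all probe sets, and -2.44 for cyclopamine minus vehicle, against 0.02 over all probe sets.

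**Figure D1:**
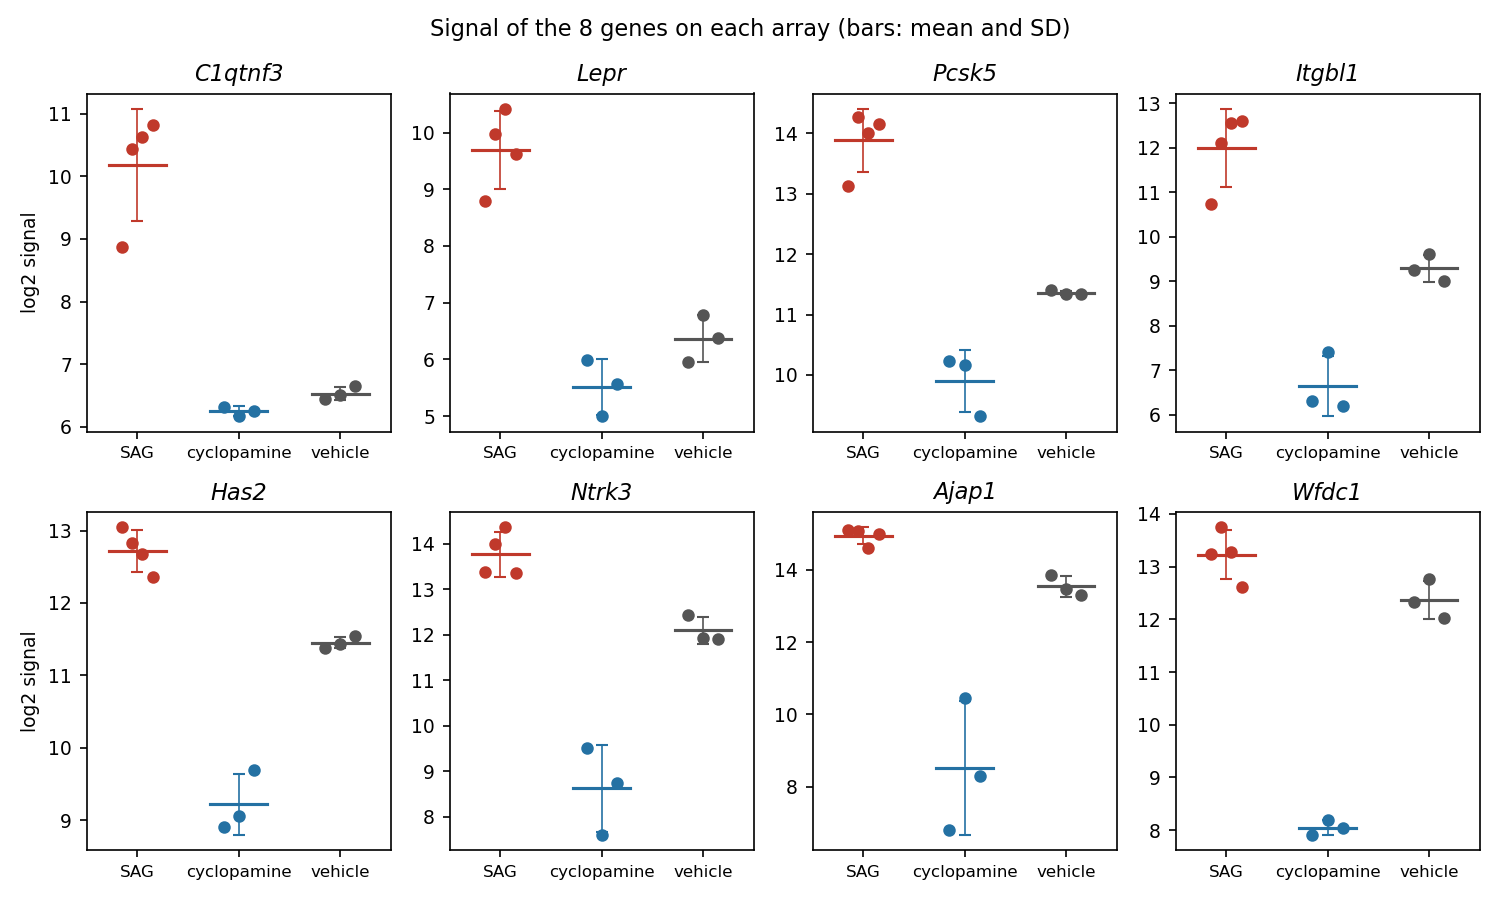
Log2 signal of each gene (y axis, own scale per panel) on each array, grouped as SAG (4 arrays), cyclopamine (3) and vehicle (3), with each group's mean and SD. Panels run from the gene whose vehicle level lies nearest to cyclopamine (C1qtnf3) to the gene whose vehicle level lies nearest to SAG (Wfdc1).

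The secreted ligand C1qtnf3, also called CTRP3, belongs to the C1q and tumour necrosis factor related proteins and is known as an adipokine and as a product of growing cartilage. Its log2 signal was 8.87, 10.43, 10.63 and 10.82 with SAG, 6.32, 6.17 and 6.25 with cyclopamine, and 6.44, 6.50 and 6.65 with vehicle. All SAG arrays lay above the vehicle arrays by at least 2.22 units, while the cyclopamine and vehicle arrays were separated by a gap of only 0.12. It rose 12.6-fold with SAG against vehicle (3.66 ± 0.38 SE, limma adjusted p = 0.00277) and did not pass with cyclopamine (-0.28 ± 0.40, limma adjusted p = 0.771). The SE pools the spread of all 3 groups, of which SAG spread most (SD 0.89, against 0.08 with cyclopamine and 0.11 with vehicle). SAG replicate 1 was the lowest SAG array. The vehicle mean of C1qtnf3 stood at the 41.1st percentile of probe set means and its cyclopamine mean at the 38.4th. Both are dim levels, and how well the array resolves differences there was not tested. The RefSeq promoter window of C1qtnf3, 250 bases before to 50 after the annotated start on GRCm38.p6 at chr15:10952082-10952381, plus strand, is shown because this gene has the lowest vehicle position of the 8, with the TATA motif TATAAA in capitals, which begins 6 bases before that start.
C1qtnf3: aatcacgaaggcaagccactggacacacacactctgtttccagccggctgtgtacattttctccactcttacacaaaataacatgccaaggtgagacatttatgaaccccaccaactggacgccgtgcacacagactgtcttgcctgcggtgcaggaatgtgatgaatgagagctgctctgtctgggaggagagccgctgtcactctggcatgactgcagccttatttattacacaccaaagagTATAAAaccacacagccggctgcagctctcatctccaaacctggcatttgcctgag

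Lepr encodes the leptin receptor, a cytokine receptor that signals through JAK2 and STAT3 and that marks mesenchymal stromal cells in bone marrow. It read 8.79, 9.97, 10.42 and 9.62 with SAG, 5.98, 4.997 and 5.57 with cyclopamine, and 5.95, 6.78 and 6.38 with vehicle. The SAG arrays stood 2.01 units or more above the vehicle arrays, and cyclopamine replicate 1 overlapped the lowest vehicle array. Lepr rose 10.1-fold with SAG (3.33 ± 0.36, limma adjusted p = 0.00374) and did not pass with cyclopamine (-0.85 ± 0.39, limma adjusted p = 0.273). The cyclopamine mean stood at the 30.0th percentile of probe set means. Of 11 measured genes of leptin receptor signalling, 0 passed with SAG (limma, where 0.73% of all probe sets did) and 1 fell with cyclopamine (where 5.12% passed in either direction). That gene was Irs1, an adaptor of insulin and cytokine receptors (-1.02 ± 0.25, limma adjusted p = 0.0435), whose call ended in 8 of 10 fits that left out 1 array. Leprot, which encodes an endosomal protein that acts on leptin receptor trafficking, was at -0.11 ± 0.13 with SAG and -0.05 ± 0.13 with cyclopamine. The leptin gene Lep had group means of 3.91 (SAG), 3.89 (cyclopamine) and 3.77 (vehicle), all dimmer than the lower quartile over probe sets (5.19).

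Ntrk3 encodes TrkC, the receptor tyrosine kinase for neurotrophin-3, best known in sensory neurons. Its signal was 13.37, 13.99, 14.36 and 13.35 with SAG, 9.52, 7.60 and 8.74 with cyclopamine, and 12.43, 11.93 and 11.91 with vehicle, and none of the 3 groups overlapped. Ntrk3 fell 11.1-fold with cyclopamine (-3.47 ± 0.43, limma adjusted p = 0.00203), while its difference with SAG, 1.68 ± 0.40, did not pass (limma adjusted p = 0.106). The SAG difference passed without cyclopamine replicate 2 (adjusted p = 0.0208), an array that bears on it through the pooled variance alone. Markers of neurons and glia varied within every group: the mean log2 signal of the 8 measured markers was 6.65 to 8.65 with SAG, 6.80 to 9.45 with cyclopamine and 7.81 to 9.74 with vehicle. None of the 8 passed in either comparison by limma, and 0 of 8 were dimmer on average than that quartile. Within each group an array at one end for these markers was at the same end for Ntrk3. SAG replicate 4 was the lowest SAG array for both (markers 6.65, Ntrk3 13.35), cyclopamine replicate 1 the highest cyclopamine array for both (9.45 and 9.52), and vehicle replicate 1 the highest vehicle array for both (9.74 and 12.43). The other end differed in 2 groups. The highest SAG array was replicate 1 for the markers and replicate 3 for Ntrk3, and the lowest cyclopamine array was replicate 3 for the markers and replicate 2 for Ntrk3. With 3 or 4 arrays in a group, agreement at one end says little. The part of neural cells in the Ntrk3 signal was not tested.

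Among 8 measured neurotrophins, co-receptors and adaptors, 0 passed with SAG and 2 fell with cyclopamine. Sorcs2, a sortilin-family co-receptor of proneurotrophins, had 12.72, 12.53, 12.62 and 12.53 with SAG, 10.07, 8.55 and 8.87 with cyclopamine, and 11.37, 10.93 and 11.08 with vehicle. It fell with cyclopamine (-1.96 ± 0.32, limma adjusted p = 0.00656), and its difference with SAG was 1.47 ± 0.30 (limma adjusted p = 0.0538). Vehicle thus lay between the treated groups for Sorcs2 as it did for Ntrk3. Ngfr, the p75 neurotrophin receptor, fell with cyclopamine (-1.90 ± 0.40, limma adjusted p = 0.0221) and was at -0.45 ± 0.37 with SAG. Leaving out any 1 of vehicle replicate 1, vehicle replicate 2 and cyclopamine replicate 3 ended its call (highest adjusted p 0.0896). The other Trk receptor measured here, Ntrk2, was at -0.12 ± 0.36 with SAG and 1.06 ± 0.38 with cyclopamine and did not pass.

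Has2 encodes the main hyaluronan synthase of embryonic mesenchyme, which extrudes the polysaccharide hyaluronan into the matrix. Its signal was 13.04, 12.82, 12.67 and 12.35 with SAG, 8.91, 9.05 and 9.70 with cyclopamine, and 11.38, 11.44 and 11.54 with vehicle. The 3 groups did not overlap, and the vehicle arrays spanned the narrowest range. Has2 rose 2.41-fold with SAG (1.27 ± 0.21, limma adjusted p = 0.0228) and fell 4.70-fold with cyclopamine (-2.23 ± 0.22, limma adjusted p = 0.000522). The SAG call ended without any 1 of the 3 vehicle arrays or SAG replicate 2 or 3 (adjusted p 0.0648 to 0.125). The other synthases, Has1 and Has3, did not pass. Has1 was at 0.09 ± 0.26 with SAG and -0.29 ± 0.27 with cyclopamine, and Has3 at -0.60 ± 0.28 with SAG and 0.28 ± 0.30 with cyclopamine.

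Of 16 measured genes of the hyaluronan list, which holds Has1, Has3 and the precursor enzyme gene Ugdh beside binding proteins, receptors and degrading enzymes, 0 passed with SAG and 2 fell with cyclopamine. Vcan, the proteoglycan versican, which binds hyaluronan, fell with cyclopamine (-1.51 ± 0.28, limma adjusted p = 0.0140) and was at -0.03 ± 0.27 with SAG. Hapln1, the link protein that joins versican to hyaluronan, fell likewise (-1.91 ± 0.48, limma adjusted p = 0.0455) and was at 0.28 ± 0.44 with SAG. The Vcan call ended in 3 and the Hapln1 call in 7 of the 10 fits that left out 1 array (highest adjusted p 0.0523 and 0.15). Cd44, a hyaluronan receptor, was at 0.80 with SAG and 0.28 with cyclopamine and did not pass.

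Itgbl1 encodes a secreted protein with EGF-like repeats that resemble those of integrin beta chains. Its signal was 10.73, 12.11, 12.57 and 12.59 with SAG, 6.31, 7.41 and 6.18 with cyclopamine, and 9.24, 9.62 and 9.01 with vehicle. No groups overlapped, SAG replicate 1 was the lowest SAG array, and cyclopamine replicate 2 was the highest cyclopamine array. Itgbl1 rose 6.54-fold with SAG (2.71 ± 0.44, limma adjusted p = 0.0228) and fell 6.29-fold with cyclopamine (-2.65 ± 0.47, limma adjusted p = 0.0106). The SAG call ended without any 1 of the 3 vehicle arrays or SAG replicate 2, 3 or 4 (adjusted p 0.0620 to 0.0974). Of the 8 integrin beta subunits themselves, 0 passed with SAG. With cyclopamine, Itgb3 fell (-1.47 ± 0.23, limma adjusted p = 0.00628), and Itgb2, the beta chain of leukocyte integrins, rose (1.48 ± 0.25, limma adjusted p = 0.00895). In the macrophage marker list, 2 of 9 measured markers, Cd14 and Itgam, rose with cyclopamine and 7 did not pass by limma. The differences of its markers with cyclopamine ran from -0.88 (C1qb) to 2.70 (Itgam). The mean log2 signal of the list was 10.8 to 11.9 with cyclopamine and 10.1 to 10.7 with vehicle. With SAG it was 10.05 to 10.92, a range that overlapped those of both other groups. The part of macrophages in the Itgb2 value was not tested.

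Ajap1 encodes a transmembrane protein of adherens junctions in epithelial cells. It had the largest difference of the 8 genes between SAG and cyclopamine, 6.43 log2 units, the 3rd largest of all probe sets. Its signal was 15.11, 15.07, 14.60 and 14.99 with SAG, 6.79, 10.46 and 8.30 with cyclopamine, and 13.85, 13.48 and 13.30 with vehicle. The cyclopamine arrays spread over more than 3 units, with replicate 2 highest, yet the highest of them lay 2.84 units below the lowest vehicle array. Ajap1 fell 32.6-fold with cyclopamine (-5.03 ± 0.68, limma adjusted p = 0.00294). With SAG it was at 1.40 ± 0.63 (limma adjusted p = 0.461), although no SAG array overlapped a vehicle array. Fitting SAG and vehicle alone, without the spread of the cyclopamine arrays, gave an adjusted p of 0.0103. None of 12 measured adherens junction genes passed in either comparison by limma. E-cadherin, Cdh1, was at -1.44 ± 0.31 with SAG and 1.20 ± 0.33 with cyclopamine, and Cdh11, a mesenchymal cadherin, at 0.53 ± 0.15 and -0.32 ± 0.16. The other cadherin of that list, Cdh2, was at 0.99 ± 0.25 with SAG and 0.01 ± 0.26 with cyclopamine. The promoter window of Ajap1 (GRCm38.p6, chr4:153482781-153483080, minus strand) is shown because Ajap1 has the highest vehicle position of the 5 genes with a window. Each GC box GGGCGG is in capitals.
Ajap1: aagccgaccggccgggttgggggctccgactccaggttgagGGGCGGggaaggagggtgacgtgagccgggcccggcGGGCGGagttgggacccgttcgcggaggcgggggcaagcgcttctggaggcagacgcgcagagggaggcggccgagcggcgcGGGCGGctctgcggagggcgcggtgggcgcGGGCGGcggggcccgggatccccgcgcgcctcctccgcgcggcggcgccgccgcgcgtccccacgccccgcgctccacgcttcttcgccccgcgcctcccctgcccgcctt

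Pcsk5 encodes a proprotein convertase, an enzyme that cuts growth factor precursors such as that of GDF11 into their active form. Its signal was 13.12, 14.27, 14.00 and 14.15 with SAG, 10.24, 10.16 and 9.32 with cyclopamine, and 11.40, 11.34 and 11.34 with vehicle. The vehicle arrays were nearly equal, and neither treated group overlapped them. Pcsk5 rose 5.74-fold with SAG (2.52 ± 0.29, limma adjusted p = 0.00406) and fell 2.75-fold with cyclopamine (-1.46 ± 0.31, limma adjusted p = 0.0232). The cyclopamine call ended without any 1 of the vehicle arrays or cyclopamine replicate 3 (adjusted p 0.0665 to 0.0815). None of the 7 other convertases and related proteins measured passed in either comparison by limma. Furin, the ubiquitous convertase, was at 0.28 ± 0.18 with SAG and 0.21 ± 0.19 with cyclopamine. Pcsk6, the closest relative of Pcsk5, was at 0.04 ± 0.21 with SAG and -0.49 ± 0.23 with cyclopamine. The cyclopamine value passed without vehicle replicate 3 (-0.81, adjusted p = 0.0202).

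Wfdc1, known as ps20 from prostate stroma, is a secreted protein with a WAP domain, the fold of many protease inhibitors. Its signal was 13.25, 13.74, 13.28 and 12.62 with SAG, 7.91, 8.19 and 8.04 with cyclopamine, and 12.32, 12.76 and 12.03 with vehicle. SAG replicate 4 lay below vehicle replicate 2, so SAG and vehicle overlapped, while the cyclopamine arrays stood 3.84 units or more below vehicle. Wfdc1 fell with cyclopamine (-4.32 ± 0.27, limma adjusted p = 1.36e-05) and was at 0.85 ± 0.25 with SAG (limma adjusted p = 0.193). The 12 measured relatives, WAP-domain and Kunitz-type inhibitors of which several are epithelial, had a median of -1.06 with SAG and 0.37 with cyclopamine. None of them passed in either comparison by limma. Wfdc2 was at -1.52 ± 0.51 with SAG and 1.54 ± 0.55 with cyclopamine, the opposite sign to Wfdc1 in both.

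The relatives of C1qtnf3, which itself passed with SAG only, held 1 gene that passed with both compounds. C1qtnf7 had 13.55, 13.54, 13.46 and 13.37 with SAG, 10.78, 10.68 and 10.84 with cyclopamine, and 12.45, 12.38 and 12.37 with vehicle. Its groups were tight and did not overlap, and it rose 2.12-fold with SAG (1.08 ± 0.11, limma adjusted p = 0.00277) and fell 3.11-fold with cyclopamine (-1.64 ± 0.12, limma adjusted p = 5.66e-05). Vehicle lay at 0.60 of the way from cyclopamine to SAG for C1qtnf7, against 0.07 for C1qtnf3. Of the 11 measured genes of this family and its receptors, 1 rose with SAG. With cyclopamine, 1 fell and 1 rose, the adiponectin receptor gene Adipor2 (0.68 ± 0.16, limma adjusted p = 0.0337), whose call ended in 7 of 10 fits that left out 1 array.

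**Figure D2:**
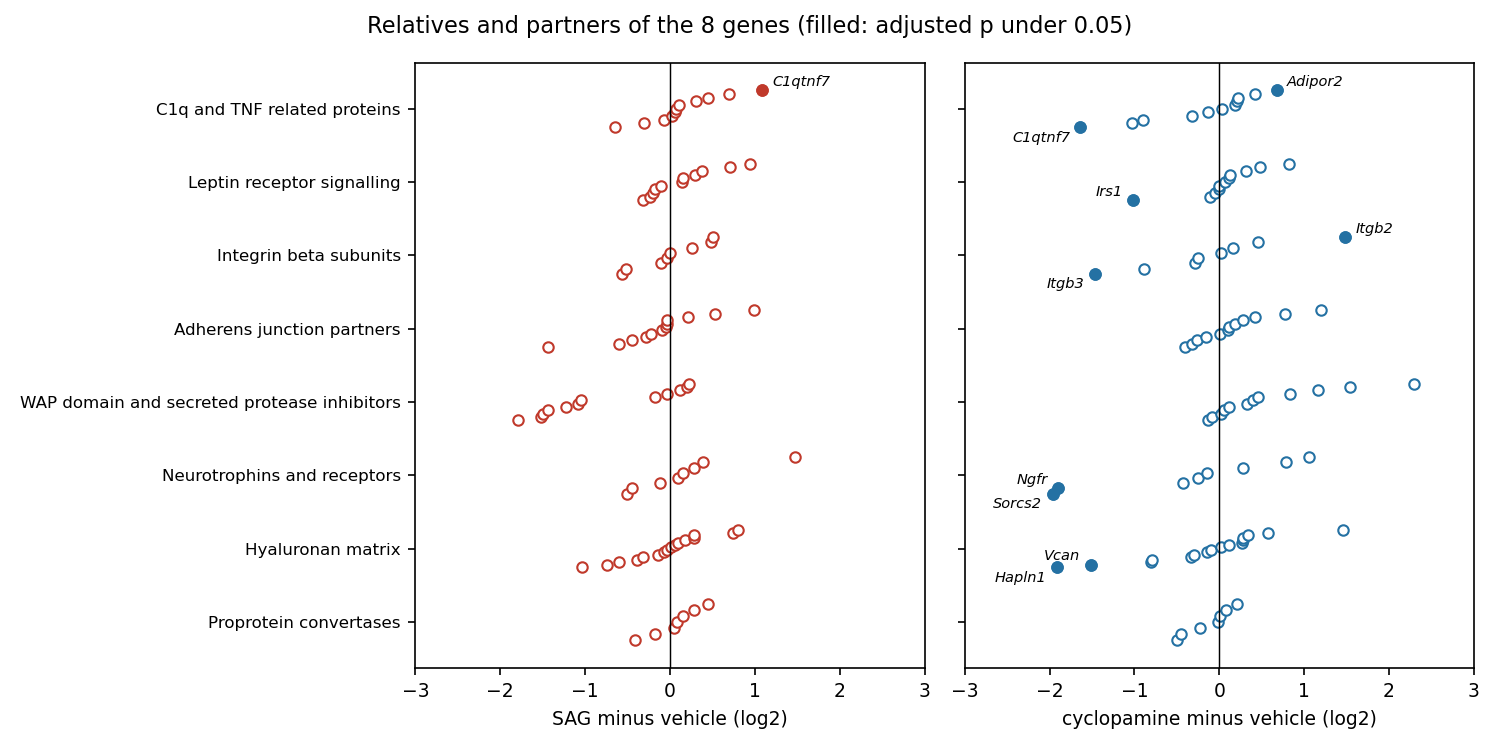
Log2 differences from vehicle (x axis) of each measured gene in the 8 lists of relatives and partners, with SAG in the left panel and cyclopamine in the right. Filled points passed limma at an adjusted p under 0.05: C1qtnf7 with SAG, and C1qtnf7, Adipor2, Irs1, Itgb3, Itgb2, Sorcs2, Ngfr, Vcan and Hapln1 with cyclopamine.

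To place vehicle between the compounds, its position was computed for each gene as the distance of the vehicle mean from the cyclopamine mean divided by the distance of the SAG mean from the cyclopamine mean, so that 0 is the cyclopamine level and 1 the SAG level. On the log2 scale C1qtnf3 stood at 0.07, Lepr at 0.20, Pcsk5 at 0.37 and Itgbl1 at 0.49. Has2 stood at 0.64, Ntrk3 at 0.67, Ajap1 at 0.78 and Wfdc1 at 0.84. Vehicle therefore lay between the means of the treated groups for all 8 genes, nearer to cyclopamine for 4 and nearer to SAG for 4. Of the 32 other probe sets with as large a difference between SAG and cyclopamine, 93.8% also had vehicle between the treated means, so the count for the 8 genes is near that share. When 1 array was left out, the widest range of position was that of Lepr, 0.15 to 0.25, and C1qtnf3 stayed between 0.06 and 0.08. Itgbl1 ranged from 0.459 to 0.529 and came nearer to SAG without vehicle replicate 3, SAG replicate 3 or 4, or cyclopamine replicate 2, so its side of the midpoint was not settled. Neighbouring genes in this order had ranges that overlapped for Has2 (0.62 to 0.66) and Ntrk3 (0.64 to 0.70), and for Ajap1 (0.75 to 0.81) and Wfdc1 (0.80 to 0.87). Differences between genes in position were not tested.

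The position depends on the scale. On the linear signal scale it was 0.01 for C1qtnf3, 0.04 for Lepr, 0.11 for Pcsk5, 0.12 for Itgbl1, 0.35 for Has2, 0.28 for Ntrk3, 0.37 for Ajap1 and 0.53 for Wfdc1. The median of the 8 genes was 0.57 on the log2 scale and 0.20 on the linear scale, where Wfdc1 alone stood above 0.5. Has2 and Ntrk3 changed places in the order. Among the pathway's own target genes the log2 position was 0.82 for Gli1, 0.73 for Ptch1 and 0.57 for Hhip. The other 32 probe sets with a difference between SAG and cyclopamine at least as large as the smallest of the 8 genes (3.50, that of Has2) and a limma adjusted p under 0.05 had a median log2 position of 0.67 (quartiles 0.56 and 0.76). C1qtnf3, Lepr, Pcsk5 and Itgbl1 lay below that lower quartile and Ajap1 and Wfdc1 above the upper one.

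**Figure D3:**
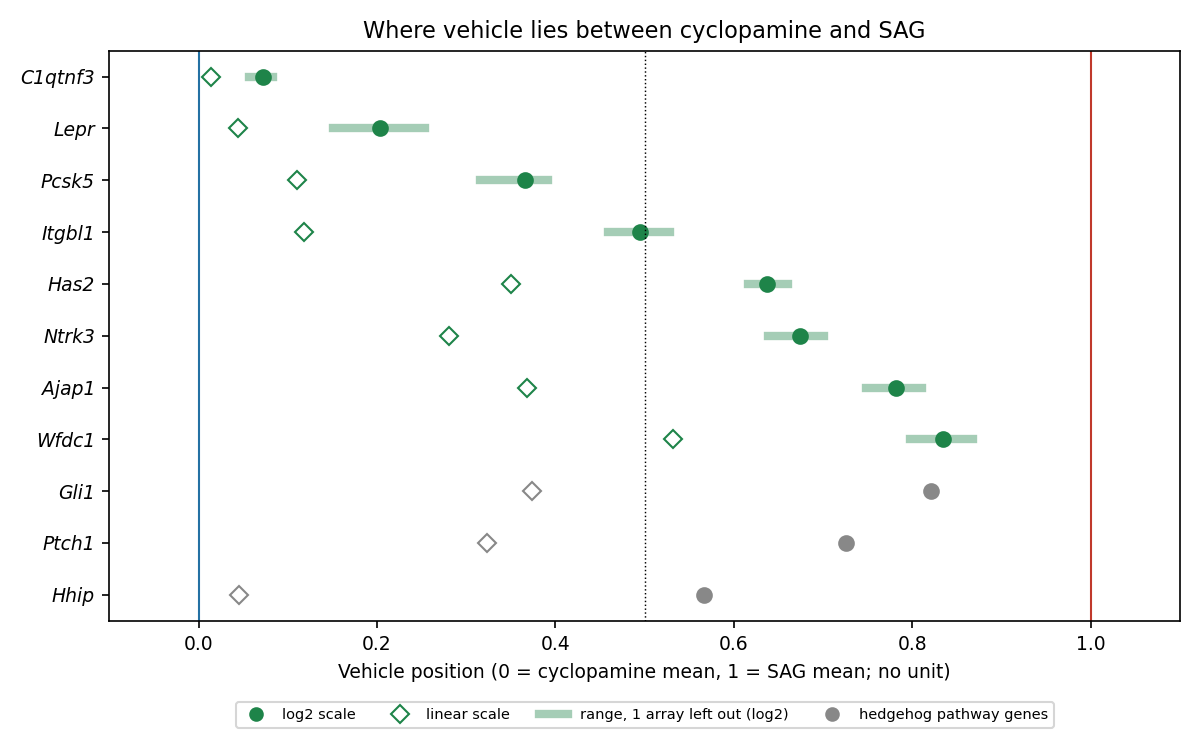
Position of vehicle between the cyclopamine mean (0) and the SAG mean (1) for each of the 8 genes and for Gli1, Ptch1 and Hhip, on the log2 scale (circles) and the linear scale (diamonds). Bars span the log2 positions with each array left out in turn. The 8 genes run from 0.07 (C1qtnf3) to 0.84 (Wfdc1) on the log2 scale.

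Whether vehicle departed from the midpoint of the treated groups was tested as the vehicle mean minus the average of the SAG and cyclopamine means. This contrast has a correlation of 0.08 with the difference between SAG and cyclopamine, against 0 for full independence. That value does not cover the earlier results with vehicle that were known when the genes were chosen. The p-values of this contrast are therefore not free of the choice. Wfdc1 in vehicle lay 1.73 ± 0.22 above the midpoint (limma adjusted p = 0.0133) and was the 1 gene of 8 that passed, where 0.27% of all probe sets passed above and 0.045% below. None of the 8 genes passed below by limma. At an unadjusted p under 0.05, 4 of 8 lay above (5.82% of all probe sets) and 2 below (5.03%). The 2 below were C1qtnf3 (-1.69 ± 0.34, limma adjusted p = 0.0901) and Lepr (-1.24 ± 0.33, limma adjusted p = 0.180). The others above were Ajap1 (1.81 ± 0.57), Ntrk3 (0.90 ± 0.36) and Has2 (0.48 ± 0.19), with limma adjusted p between 0.262 and 0.404. Itgbl1 (-0.03 ± 0.40) and Pcsk5 (-0.53 ± 0.26) did not pass either way. The midpoint tested is that of log2 values, so the side of it holds for that scale only. On the linear scale vehicle was nearer to cyclopamine for Ajap1 (position 0.37), Has2 (0.35) and Ntrk3 (0.28), and Wfdc1 stood at 0.53.

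Single arrays decided several of these calls. Wfdc1 lost its call when vehicle replicate 1 (adjusted p = 0.0673) or vehicle replicate 2 (0.109) was left out. C1qtnf3 passed below the midpoint without SAG replicate 1 (-1.91, adjusted p = 0.000382), and Ajap1 passed above it without cyclopamine replicate 2 (2.30, adjusted p = 0.0109). Without both of those arrays, a choice made after the values were seen, C1qtnf3 (-1.93, adjusted p = 0.000792) and Lepr (-1.52, adjusted p = 0.0292) passed below and Ajap1 (2.33, adjusted p = 0.0176) and Wfdc1 above. In that fit 104 of all 22206 probe sets passed above the midpoint and 30 below it, more than with all arrays (60 and 10). Of the 8 genes, 6 rose with SAG and 6 fell with cyclopamine there, where 169 of all probe sets were higher with SAG and 830 lower with cyclopamine (100 and 654 with all arrays).

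**Figure D4:**
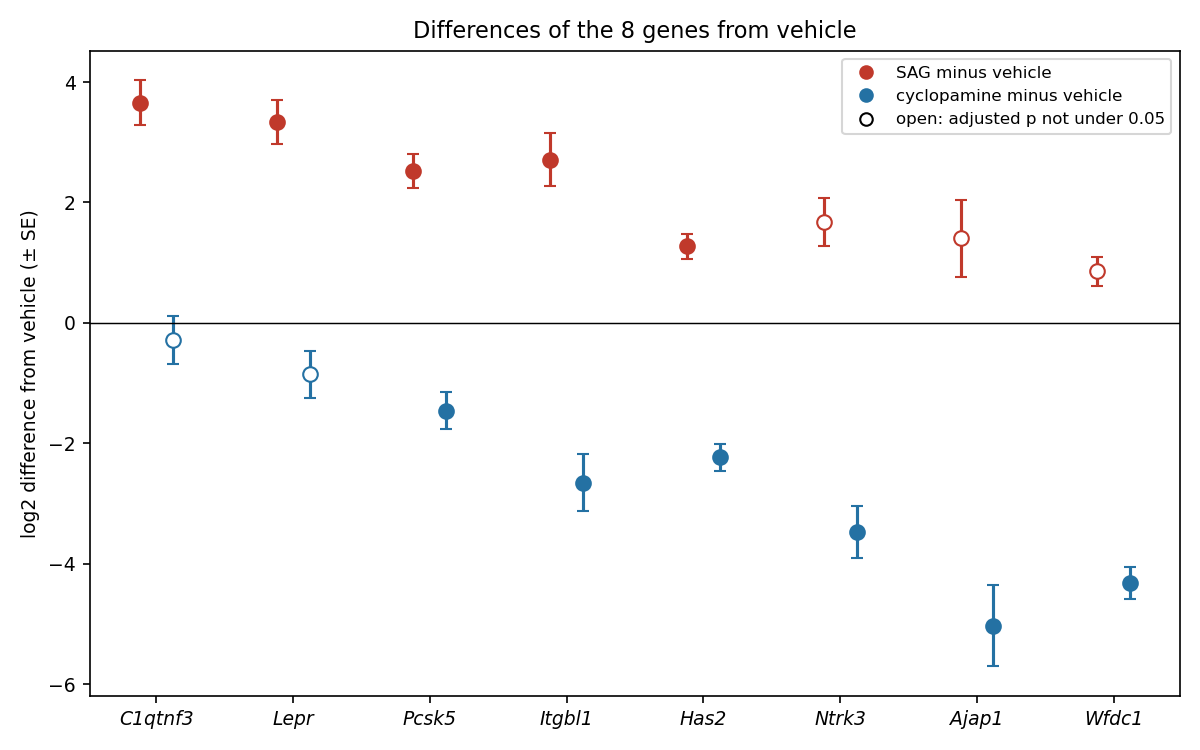
Log2 difference from vehicle with its SE (y axis) for SAG and for cyclopamine, gene by gene in the order of vehicle position, filled where the limma adjusted p was under 0.05. C1qtnf3 and Lepr passed with SAG and not with cyclopamine, Ntrk3, Ajap1 and Wfdc1 with cyclopamine and not with SAG, and Pcsk5, Itgbl1 and Has2 with both.

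The arrays can also be compared one by one, without a model. The lowest SAG array exceeded the highest vehicle array for 7 of 8 genes (6.25% of all probe sets), the exception being Wfdc1. The highest cyclopamine array was under the lowest vehicle array for 7 of 8 genes (11.9% of all probe sets), the exception being Lepr. Both held for 6 genes (1.15% of all probe sets). The treated arrays chose the genes, and earlier results that included vehicle were known when they were chosen, so these counts only describe the 8 genes.

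Within groups the genes did not move as a block. SAG replicate 1 was the lowest SAG array for C1qtnf3, Lepr, Itgbl1 and Pcsk5 and the highest for Ajap1 and Has2. SAG replicate 4 was the lowest for Wfdc1, Ntrk3 and Has2. Cyclopamine replicate 2 was the highest cyclopamine array for Itgbl1, Ajap1 and Wfdc1 and the lowest for C1qtnf3, Lepr and Ntrk3. Averaged over the 8 genes, SAG replicate 1 lay 0.52 log2 units below its group mean (-0.52), and the other arrays lay within -0.11 to 0.26 of theirs.

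Likeness of pattern was measured as the root mean square difference of log2 signal over the 10 arrays after each gene was centred on its own mean, which is a description. Among the 8 genes the closest pair was C1qtnf3 and Lepr (0.44) and the farthest C1qtnf3 and Ajap1 (2.11). Outside them, C1qtnf3 was nearest to Meox2, a mesodermal homeobox factor (0.51), and to Sostdc1, which encodes a secreted inhibitor of BMP and Wnt signals (0.55). Lepr was also nearest to Sostdc1 (0.51), then to Sertad4 (0.64). Pcsk5 was nearest to Sertad4 (0.35) and to the adenylate cyclase gene Adcy7 (0.50), and Itgbl1 to Crispld1 (0.62) and the aminopeptidase gene Enpep (0.68).

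The genes high in vehicle had other neighbours. Wfdc1 was nearest to the potassium channel gene Kcnd3 (0.35) and to Ptch1 (0.40), and Ajap1, less closely, to Ptch1 (0.98) and Kcnd3 (1.07). Ntrk3 was nearest to the synapsin gene Syn3 (0.44) and to the activin subunit gene Inhba (0.50). Has2 was nearest to Artn, the ligand artemin (0.26), and to Pakap (0.31). Vehicle position was -0.04 for Meox2, 0.15 for Sostdc1 and 0.46 for Sertad4. It was 0.58 for Adcy7, 0.60 for Crispld1 and 0.57 for Enpep, above 0.5 where Pcsk5 (0.37) and Itgbl1 (0.49) were below it. The neighbours of the genes high in vehicle had 0.69 (Pakap), 0.70 (Syn3), 0.71 (Artn), 0.73 (Ptch1), 0.77 (Inhba) and 0.87 (Kcnd3). All neighbours were picked by likeness over arrays that include vehicle, so a vehicle position near that of the gene is partly built in. Their positions are therefore a description and no separate evidence on the genes.

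Cell type markers moved between the groups as well. Of 14 measured mesenchyme markers, 0 passed with SAG and 7 fell with cyclopamine, and the mean log2 signal of the list was 13.88 to 13.94 with SAG, 12.49 to 12.99 with cyclopamine and 13.62 to 13.71 with vehicle. Vehicle lay between the treated groups for this list too. Of 11 smooth muscle markers, 8 fell with cyclopamine and 0 passed with SAG, with list means of 12.01 to 12.18 with SAG, 10.01 to 10.52 with cyclopamine and 12.38 to 12.79 with vehicle. The SAG arrays lay below the vehicle arrays for smooth muscle, the opposite order to that of the 8 genes. The duct epithelium list ran the other way in its means: 2 of 13 fell with SAG and 6 rose with cyclopamine (list means 9.75 to 10.3 with SAG, 11.8 to 12.4 with cyclopamine and 10.7 to 11.7 with vehicle). Not every gene followed, as the differences with cyclopamine ran from -1.55 to 3.48.

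Pericyte markers had list means of 9.57 to 10.1 with SAG, 8.21 to 9.17 with cyclopamine and 9.73 to 10.2 with vehicle, and 1 of 6 fell with cyclopamine. Endothelial markers stood at 9.16 to 9.56 with SAG, 7.43 to 8.98 with cyclopamine and 8.59 to 9.59 with vehicle, with 1 of 10 lower with cyclopamine. Cartilage markers were at 6.31 to 6.45 with SAG, 6.18 to 6.38 with cyclopamine and 6.17 to 6.31 with vehicle, and 4 of 8 (Comp, Matn1, Matn3 and Chad) were dimmer on average than the lower quartile over probe sets. Adipocyte markers were at 7.01 to 7.29 with SAG, 7.22 to 7.55 with cyclopamine and 7.11 to 7.40 with vehicle, and Adipoq and Plin1 were below that quartile. Of the cartilage list 1 of 8 fell with cyclopamine, and 0 of 7 adipocyte markers passed in either comparison by limma. The part of the number of mesenchymal, muscle or epithelial cells in the values of the 8 genes was not tested.

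**Figure D5:**
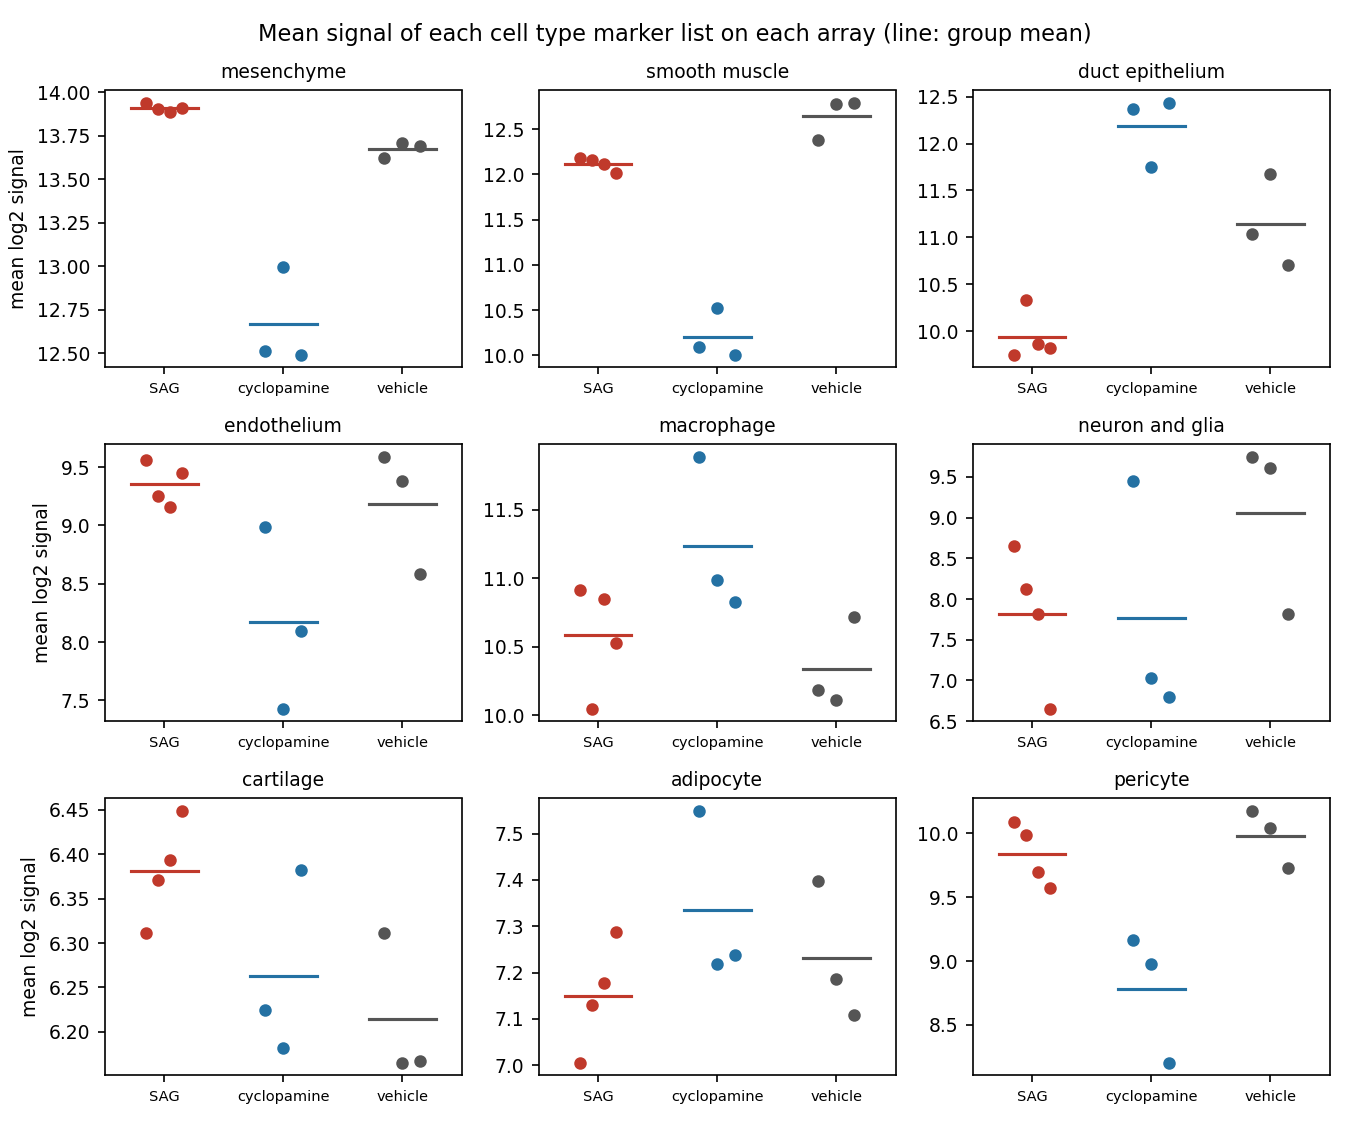
Mean log2 signal of the measured markers of 9 cell types (y axis, own scale per panel) on each array with SAG, cyclopamine and vehicle, with a line at each group mean. Mesenchyme was highest with SAG (13.88 to 13.94) and lowest with cyclopamine (12.49 to 12.99), smooth muscle was lowest with cyclopamine, and duct epithelium was highest with cyclopamine (11.8 to 12.4).

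The promoter windows printed above belong to a set of 6 windows from RefSeq on GRCm38.p6 that matched 5 of the 8 genes, with 2 for Lepr. Wfdc1, Ntrk3 and Has2 had no window, and a relation of the windows to vehicle position was not tested. The GLI motif GACCACCCA, searched on both strands, was in 0 of the 6 windows and in 0.253% of all 32851 windows of this length. No match says only that these letters are not within 300 bases around these starts. TATAAA was in the C1qtnf3 window alone of the 6, against 13.6% of all windows. GGGCGG was in the windows of Ajap1 (4 matches), Pcsk5 (2), Itgbl1 (1) and the second of Lepr (1), against 35.7% of all windows. Base composition ran from 45.3% G and C with 6 CpG in Itgbl1 and 50.7% with 7 in C1qtnf3 to 65.7% with 22 in Pcsk5 and 80.7% with 51 in Ajap1. The Ajap1 window had more G and C than 99.2% of all windows, and that of Itgbl1 more than 23.1%.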

How the data were processed

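RNA from 10 cultures was measured on Affymetrix arrays, with total RNA (100 ng per sample) labelled by the GeneChip WT Plus protocol, per the labels' protocols. The deposited values are log2 signals, 1 per probe set and array, and the log2 base was inferred from their range (2.95 to 18.7). The sources used here do not say how the authors summarized and normalized them. Of 22206 probe sets, 19572 have a gene symbol in the platform annotation.

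Group means over all 10 arrays were estimated with lmFit and eBayes of limma 3.58.1 in R 4.3.3, which left 7 residual degrees of freedom. No probe set was filtered out, p-values (two-sided) were adjusted over all 22206 by Benjamini-Hochberg, and the threshold was 0.05. Errors beside differences are moderated SEs. The contrasts were SAG minus vehicle, cyclopamine minus vehicle, and vehicle minus the midpoint of both. The series describes its samples as biological replicates. The 8 genes, the 9 lists of relatives and pathway genes (95 of 108 genes measured under a name) and the 9 marker lists (86 of 92) were chosen with earlier results of these data known. Named beside the 8 genes were list genes that passed, at most 4 per list and contrast, direct partners, and the 2 genes nearest in pattern. Leprot, Ntrk2, Cd44, Cdh1, Cdh2, Cdh11 and Wfdc2 were named after their values were seen. Same-numbered replicates deviated together with r of -0.19 to 0.24, so the numbers were not taken as pairs. Alternatives were other normalizations, filters, priors, weights per array, a block for the replicate number, and leaving out arrays. Promoter windows came from RefSeq (GRCm38.p6).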

Additional observations from a re-analysis of the deposited data

How the results depend on the processing

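Over the 24 pairs of a gene and a contrast, 480 alternative values were computed: 438 kept their direction and their side of the threshold, 26 lost the call, 11 gained it and 5 changed sign, all of them Itgbl1 against the midpoint, which was not called. With the replicate block, in which SAG replicate 4 has no partner and drops out of the comparison, 2 genes rose with SAG in place of 5, without Itgbl1 (adjusted p = 0.0771), Has2 (0.0771) and Pcsk5 (0.0557), by limma with the block. There 5 fell with cyclopamine, without Pcsk5 (0.0623), and Itgbl1 stood 0.071 above the midpoint. At an adjusted p of 0.01, 3 genes rose with SAG and 0 lay above the midpoint. With array weights 1 gene lay below the midpoint. With 1 array left out, 3 to 6 genes rose with SAG, 0 to 2 lay above the midpoint and 0 to 1 below it, and Itgbl1 ranged from -0.24 to 0.17 against the midpoint. The 4 arrays that turned its sign were vehicle replicate 3, SAG replicate 3 or 4 and cyclopamine replicate 2. Without SAG replicate 1 and cyclopamine replicate 2 together, an alternative added later, 2 genes lay above and 2 below the midpoint, and Has1 with SAG was at -0.10. The linear scale, also added later, gave a median position of 0.20. Left-out arrays also turned the sign of uncalled partners: Has1 with SAG (-0.14 to 0.27), Pcsk6 with SAG (-0.27 to 0.24, and -0.0075 with the replicate block), Lep with SAG (-0.035 to 0.31) and Lep with cyclopamine (-0.053 to 0.29). Counts over all probe sets moved by over 1.5 times: higher with SAG was 100 in the main setting, 20 with the replicate block, 31 at 0.01, 166 with array weights, 151 with only the groups compared and 39 to 163 with 1 array left out, and lower with cyclopamine was 654 in the main setting, 411 with the replicate block, 252 at 0.01, 368 with only the groups compared and 332 to 773 with 1 array left out. Above the midpoint, 60 became 16 with the replicate block, 11 at 0.01, 93 with array weights and 9 to 109 with 1 array left out. Below it, 10 became 1 with the replicate block, 1 at 0.01, 19 with array weights and 0 to 29 with 1 array left out. The cause of these shifts was not tested. Signals near the lower quartile of probe set means (5.19) limit what can be said of Lepr and C1qtnf3 below vehicle.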
